A study of Mus musculus with 2 samples.

Results

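Genes of cholesterol synthesis, uptake and export were compared between the bulge and the hairshaft of the mouse hair follicle. All probe sets whose platform symbol was 1 of 31 listed genes were taken, older symbols included. The rule used gene symbols and no measured value. Of the 31 genes, 28 had at least 1 probe set, with 61 probe sets in all, among 18194 genes and 45101 probe sets on the array. Acat2, Nr1h2 and Soat1 had no probe set listed under their symbols in the annotation used and were not analysed here.

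Both structures were cut by laser from eosin-stained frozen skin of 21-day-old C57Bl6 mice, with no treatment or genetic change given. The bulge is a segment of the outer root sheath where follicle stem cells reside, and the hairshaft is the keratinised fibre that the follicle makes. There was 1 Affymetrix expression array for each, made from 30 ng of total RNA that was amplified and labelled with biotin. The sources used here give neither the number, sex nor body site of the animals. Without replicates the spread between samples is unknown, so no test was made, and every fold and count below describes these 2 arrays.

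Values are log2 GCRMA values, a probe-set summary made by the authors that corrects background and normalizes the arrays to each other. Each gene was read from its brightest probe set (by the mean of the pair of arrays), and each difference is the bulge value minus the hairshaft value, in log2 units. A gene was counted if it exceeded a background floor of 2.68 on at least 1 array. That floor was set by 80 probe sets of olfactory and vomeronasal receptor genes, at their 95th percentile. The signal of a probe set also depends on its probes, so levels are not compared between genes.

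Markers of the named structures and of other cell types did not all follow the labels. Of 6 hair shaft keratins, 4 were higher in the bulge array by 2-fold or more and none in the hairshaft array, where 4 were at or below the floor. Of 6 bulge markers, 5 were higher in the bulge array by 2-fold or more. All 8 skeletal muscle markers, all 7 adipocyte markers, all 7 endothelial markers and the 5 sebocyte markers above the floor were also higher in the bulge array by 2-fold or more. The muscle markers were furthest apart of these lists, with a median difference of 11.46 and a summed linear level of 157671 in the bulge, against 54.7 in the hairshaft. For all 5 inner root sheath markers the bulge value exceeded the hairshaft value, by 3.65- to 57.6-fold, with a median difference of 4.64. The names bulge and hairshaft below therefore refer to the arrays so labelled. Fewer cells of a type and less RNA per cell cannot be told apart in such samples.

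Cholesterol is built from acetyl-CoA by way of mevalonate, isoprenoid units, squalene and lanosterol. Transcription of most of these enzymes is driven by SREBP2, which the escort protein SCAP carries out of the endoplasmic reticulum when sterols are low and which INSIG proteins hold back when sterols are high. Surplus sterol activates the LXR receptors, which raise the export pumps of the ABC family. In skin, keratinocytes make cholesterol for the lamellar lipids of the barrier, and sebaceous glands make sterols and their precursors for sebum.

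Most cholesterol genes differed by under 2-fold between the arrays, and those further apart were mainly higher in the bulge. Of the 27 genes above the floor, 6 were higher in the bulge by 2-fold or more, namely Insig1, Mvd, Idi1, Lss, Abca1 and Insig2. That is 22.2%, against 11.4% of all 13329 genes above the floor. A single gene, Stard4, was higher in the hairshaft by 2-fold or more, which is 3.70%, against 4.91% of all genes. The other 20 were under 2-fold apart. The median difference of the 27 was 0.38, against 0.00 over all genes.

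**Figure D1:**
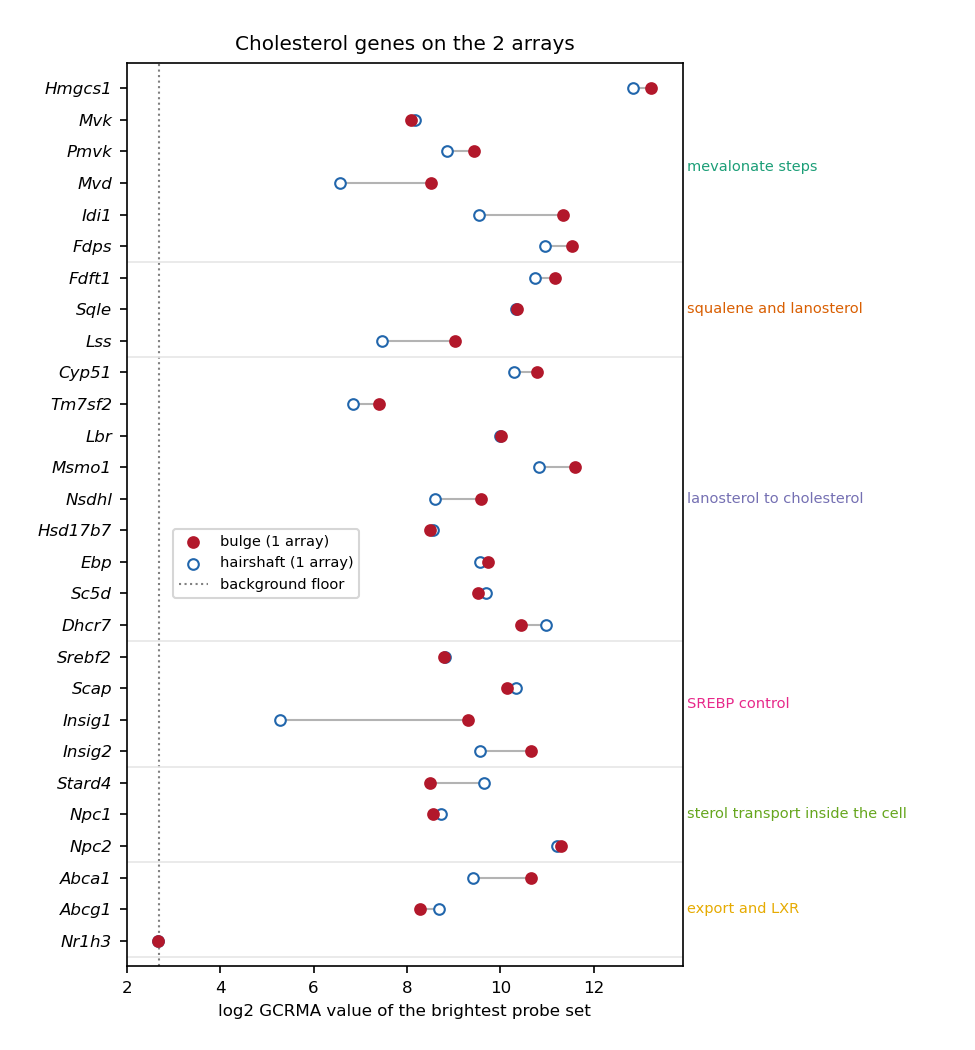
Level of each of the 28 measured cholesterol genes on the bulge array (filled points) and the hairshaft array (open points), as the log2 GCRMA value of its brightest probe set, with genes ordered by role from top to bottom. Insig1 has the longest line, at 9.31 in the bulge, against 5.28 in the hairshaft, Stard4 lies higher in the hairshaft, and Nr1h3 lies at the dotted background floor on both arrays.

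At a limit of 1.5-fold, 8 genes were higher in the bulge and still 1 in the hairshaft. The background at this limit was 18.5% of all genes in the direction of the bulge and 13.8% in that of the hairshaft. The 2 genes added were Nsdhl and Msmo1. Most of the 27 are bright on these arrays, so the count was repeated among bright genes. Among genes with a mean above 8, 4 of 24 cholesterol genes (16.7%) were higher in the bulge by 2-fold or more, against 6.13% of all 4845 such genes. This subset left out Insig1 and Mvd, and its median over all genes was -0.10. Stard4 was the 1 gene of the 24 higher in the hairshaft (4.17%, against 4.48% of such genes).

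**Figure D2:**
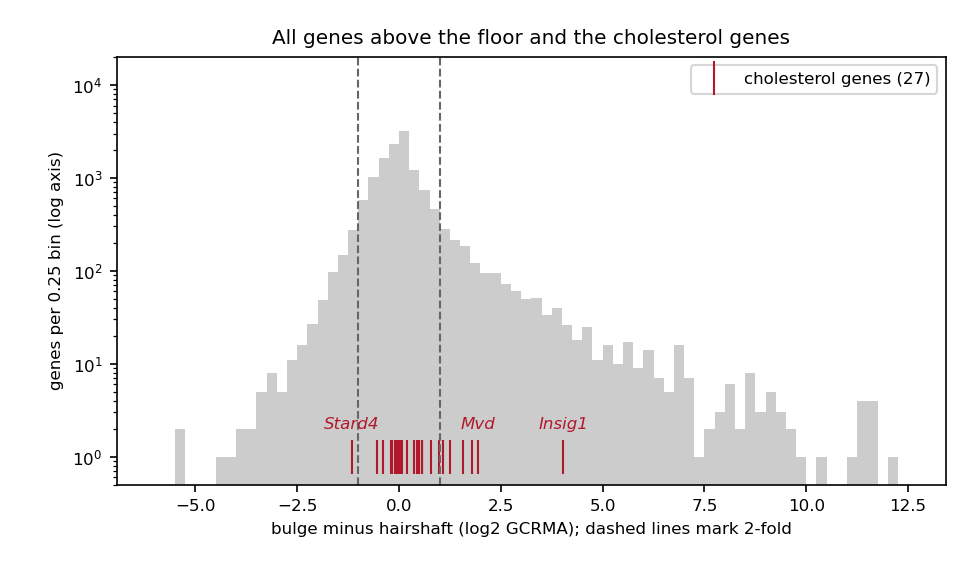
Number of genes (log axis) by bulge minus hairshaft difference in log2 GCRMA units for all 13329 genes above the floor (grey bars), with each of the 27 cholesterol genes above the floor as a red tick at its own difference. Most ticks lie between the dashed 2-fold lines, 6 lie to the right of them, with Insig1 farthest at 4.03, and Stard4 lies to the left at -1.16.

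Windows of 300 bases around the annotated starts of 5 genes are shown. They were chosen to cover the 4 genes with the largest differences and Hmgcs1. Hmgcs1 was the 1 listed gene whose window held the exact letters searched for the sterol regulatory element. Each window runs from 250 bases before the annotated start to 50 bases from it, 5′ to 3′ on the gene's strand, and comes from RefSeq annotation of GRCm38.p6. Capitals mark the sterol regulatory element, the site bound by SREBP (letters TCACNCCAC), and the NF-Y box (letters CCAAT), a site of the factor that often acts beside it. Both were searched on both strands, so the box also appears as ATTGG. The window of Insig1 lies at chr5:28071162-28071461 (plus strand), Mvd at chr8:122443373-122443672 (minus strand), Idi1 at chr13:8885356-8885655 (plus strand), Lss at chr10:76531355-76531654 (plus strand) and Hmgcs1 at chr13:119690101-119690400 (plus strand).
Insig1: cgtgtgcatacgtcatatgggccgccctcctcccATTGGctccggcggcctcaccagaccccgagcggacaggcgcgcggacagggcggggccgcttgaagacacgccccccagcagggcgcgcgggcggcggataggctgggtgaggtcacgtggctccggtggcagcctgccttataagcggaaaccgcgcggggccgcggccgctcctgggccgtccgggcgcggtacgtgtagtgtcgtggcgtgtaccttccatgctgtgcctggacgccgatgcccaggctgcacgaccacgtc
Mvd: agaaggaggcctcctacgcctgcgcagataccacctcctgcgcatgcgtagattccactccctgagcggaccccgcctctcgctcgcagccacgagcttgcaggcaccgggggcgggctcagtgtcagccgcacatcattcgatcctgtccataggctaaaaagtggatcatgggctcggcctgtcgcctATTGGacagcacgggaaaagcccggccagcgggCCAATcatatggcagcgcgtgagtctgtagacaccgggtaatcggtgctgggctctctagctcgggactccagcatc
Idi1: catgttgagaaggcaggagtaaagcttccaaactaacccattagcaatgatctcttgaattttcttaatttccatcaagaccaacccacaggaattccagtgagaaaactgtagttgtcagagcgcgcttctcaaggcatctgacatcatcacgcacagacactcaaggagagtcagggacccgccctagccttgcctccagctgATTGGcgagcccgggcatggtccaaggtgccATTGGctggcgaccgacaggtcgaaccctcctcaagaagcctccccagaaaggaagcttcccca
Lss: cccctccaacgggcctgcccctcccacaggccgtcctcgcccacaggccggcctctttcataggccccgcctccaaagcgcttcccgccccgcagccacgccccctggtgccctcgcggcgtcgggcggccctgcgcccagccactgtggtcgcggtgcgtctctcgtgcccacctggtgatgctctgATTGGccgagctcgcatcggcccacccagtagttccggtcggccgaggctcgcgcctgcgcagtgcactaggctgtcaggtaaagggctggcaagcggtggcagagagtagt
Hmgcs1: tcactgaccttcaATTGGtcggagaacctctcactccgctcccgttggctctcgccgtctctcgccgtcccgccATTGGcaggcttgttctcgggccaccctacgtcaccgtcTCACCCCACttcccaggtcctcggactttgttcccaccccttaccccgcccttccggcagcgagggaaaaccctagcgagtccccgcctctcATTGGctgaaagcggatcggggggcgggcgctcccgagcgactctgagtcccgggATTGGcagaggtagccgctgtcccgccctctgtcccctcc

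The element of Hmgcs1 began 137 bases before the start and was accompanied by 4 NF-Y boxes. Idi1 held 2 boxes, which began 45 and 14 bases before the start, and Mvd held 2, at 60 and 27 bases before it. Lss had 1 box at 62 bases and Insig1 had 1 at 216 bases before the start. The marked matches did not overlap each other.

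Across the table, 25 of the 31 listed genes had a window, with 32 windows in all. The 6 without a window were Fdps, Fdft1, Sqle, Stard4, Npc1 and Abcg1, so the counts of motifs do not cover them. The NF-Y box was found in 20 of 32 windows (62.5%), against 37.4% of all 32851 windows in the table. Windows with the Sp1 box (letters GGGCGG, both strands, no overlap with the other motifs) numbered 25 of 32 (78.1%), against 35.7% of all windows. The exact letters of the sterol regulatory element were in 1 of 32 (3.13%), against 1.24%. A direct repeat of GGTCA with 4 bases between was in 0 of 32, against 0.0457%. That repeat does not have the spacing of the LXR element, which was not searched for. The median C and G content was 62.3% in the windows of listed genes and 52.7% in all windows. Among genes above the floor the NF-Y box was present for 5 of 6 genes higher in the bulge by 2-fold or more, all but Abca1, and for 14 of 15 genes under 2-fold apart, all but Scap. These are counts of genes with the box in any of their windows. No such share over all genes was computed. A match describes the letters of the window and does not show that a factor binds there. Only exact letters were searched, so the lack of a match does not show that a site is absent.

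The mevalonate steps had 2 genes higher in the bulge by 2-fold or more, both at the end that yields the isoprenoid unit. Mvd, the decarboxylase that makes isopentenyl diphosphate, had 8.52 in bulge RNA and 6.57 in hairshaft RNA, a difference of 1.95 or 3.86-fold. Its second probe set had 7.41 in the bulge, against 6.24 in the hairshaft, a smaller difference of 1.17. Both probe sets of Mvd were thus higher in the bulge. Idi1, the isomerase that follows, had 11.33 in bulge RNA and 9.54 in hairshaft RNA, or 3.47-fold. With its second probe set the values were 10.16 in the bulge, against 8.64 in the hairshaft, a difference of 1.53. Of all genes above the floor, 5.59% had a difference at least as large as that of Mvd and 6.18% one at least as large as that of Idi1.

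The other 4 measured genes of these steps were under 1.5-fold apart. Hmgcs1, the synthase that feeds the pathway, had 13.22 in bulge RNA and 12.85 in hairshaft RNA with its brightest probe set, a difference of 0.38. Its 5 probe sets ran from -0.37 to 0.85, with 4 higher in the bulge and 1 higher in the hairshaft. The brightest probe set lies high on a scale that runs to 15.36. Whether compression of high signals affects its difference was not tested. Mevalonate kinase, Mvk, had 8.08 in the bulge, against 8.18 in the hairshaft, and its 2 probe sets were both lower in the bulge, by differences of -0.10 and -0.44. The next kinase, Pmvk, had 9.43 in bulge RNA and 8.86 in hairshaft RNA, a difference of 0.57. For Fdps, which joins isoprenoid units to farnesyl diphosphate, the values were 11.53 in the bulge, against 10.96 in the hairshaft, a difference of 0.58. Pmvk and Fdps lay just inside the 1.5-fold limit, at 1.48-fold and 1.49-fold.

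In the steps from farnesyl diphosphate to lanosterol, the last enzyme stood apart from the first 2. Lss, the cyclase that folds the squalene chain into lanosterol, had 9.03 in bulge RNA and 7.46 in hairshaft RNA, or 2.95-fold. A second probe set of Lss had 7.55 in the bulge, against 6.12 in the hairshaft, a difference of 1.44, and a dim one had 3.21 on both arrays. Fdft1, squalene synthase, had 11.17 in bulge RNA and 10.74 in hairshaft RNA. Its 2 probe sets above the floor differed by 0.43 and 0.53. Sqle, the epoxidase often named as a rate-limiting step, had 10.36 in the bulge, against 10.34 in the hairshaft, a difference of 0.02 that turned to -0.01 with quantile normalization. The enzymes before and after Sqle were thus further apart between the arrays than Sqle itself.

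None of the 9 enzymes from lanosterol to cholesterol was at least 2-fold apart. Their median difference was 0.19, with 6 above 0 and 3 below. Nsdhl, which removes carboxyl groups from the sterol ring, came nearest to the limit, with 9.58 in bulge RNA and 8.60 in hairshaft RNA, or 1.97-fold. It passed the limit with the loess trend removed, at a difference of 1.09. Cyp51, the lanosterol demethylase, had 10.78 in the bulge, against 10.30 in the hairshaft, with a second probe set at 8.75 in bulge RNA and 8.35 in hairshaft RNA and a dim one at 3.64 on both.

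Msmo1, the sterol methyl oxidase that acts before Nsdhl, depended on the probe set. Its bright probe set had 11.61 in the bulge, against 10.83 in the hairshaft, a difference of 0.78. A dim one had 3.49 in bulge RNA and 4.60 in hairshaft RNA, a difference of -1.11. The direction therefore turned when its probe sets were averaged (-0.17) or limited to plain ones (-1.11).

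The reductases Tm7sf2 and Lbr act on the same sterol intermediate, and Lbr is also a receptor of the nuclear lamina. Tm7sf2 had 7.40 in the bulge, against 6.85 in the hairshaft, a difference of 0.56, while Lbr had 10.00 in bulge RNA and 9.98 in hairshaft RNA. Ebp, the sterol isomerase, had 9.74 in the bulge, against 9.56 in the hairshaft. Hsd17b7, the ketosteroid reductase, had 8.50 in bulge RNA and 8.55 in hairshaft RNA with a probe set of the kind that can match other transcripts. Its 3 probe sets above the floor ran from -0.48 to 0.60, and its direction turned with the mean of probe sets, plain probe sets only and the loess trend removed.

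The last steps were slightly lower in the bulge. Dhcr7, the reductase that turns dehydrocholesterol into cholesterol, had 10.44 in the bulge, against 10.98 in the hairshaft, a difference of -0.54, or 1.46-fold lower in the bulge. Its substrate is also the skin's precursor of vitamin D. Sc5d, the desaturase just before it, had 9.52 in bulge RNA and 9.69 in hairshaft RNA. All 3 probe sets of Sc5d were lower in the bulge, by differences from -0.69 to -0.01. Dhcr7 kept this direction in the 3 alternatives that moved its value, and Sc5d in the 4 that moved its own.

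**Figure D3:**
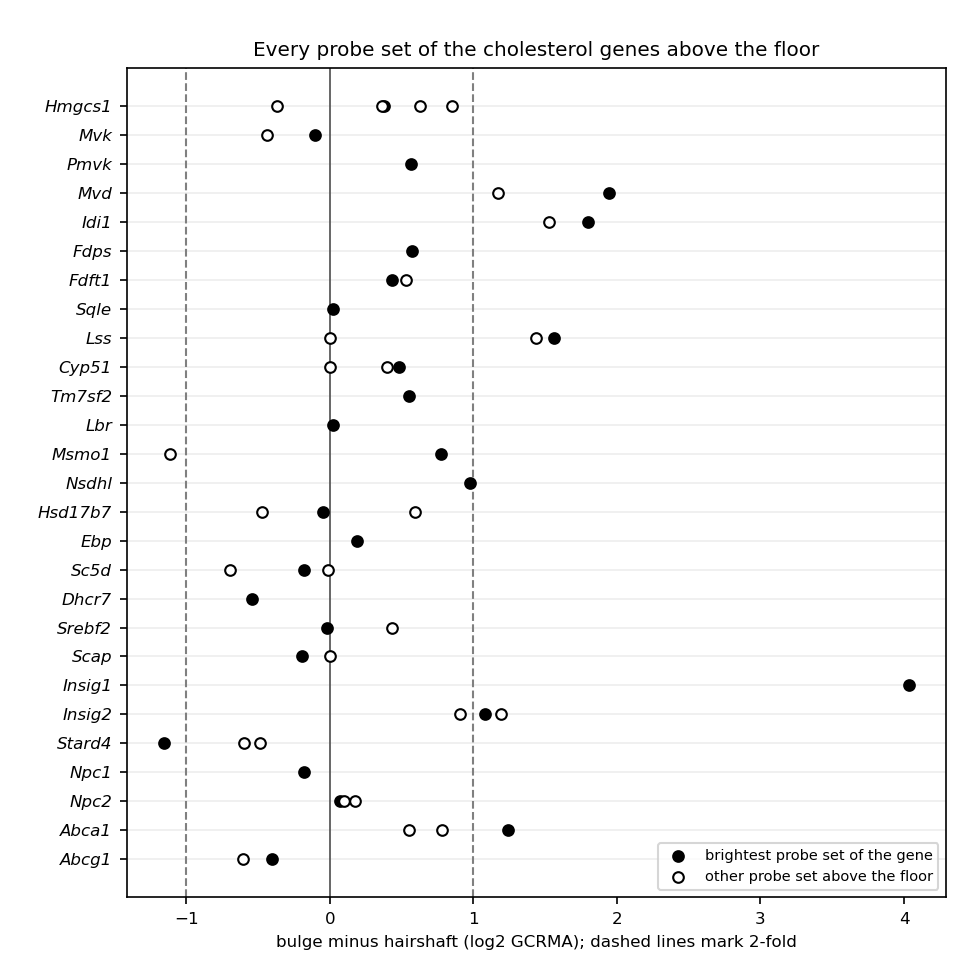
Bulge minus hairshaft difference (log2 GCRMA) of all 55 probe sets of the cholesterol genes above the floor, by gene in the order of their roles. Filled points are the brightest probe set of each gene and open points its other probe sets. The probe sets of Idi1, Mvd, Insig2 and Abca1 all lie to the right of 0 and those of Stard4 and Sc5d to the left, while Msmo1, Hmgcs1, Hsd17b7 and Srebf2 have points on both sides.

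The sensor genes of the pathway were divided between the INSIG pair and the others. Insig1, which retains SCAP in the endoplasmic reticulum and is itself an SREBP target, had 9.31 in the bulge, against 5.28 in the hairshaft. This difference of 4.03, or 16.4-fold, was the largest among the 27 genes, and 1.70% of all genes above the floor had one as large. It rests on 1 probe set. Only the offset, the loess trend and quantile normalization could move it among the alternatives, and with these 3 it ran from 3.57 to 4.06. Insig2, a second retention protein, had 10.65 in bulge RNA and 9.56 in hairshaft RNA, or 2.12-fold. Its 3 probe sets differed by 0.91 to 1.20, all higher in the bulge.

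Srebf2, the gene of SREBP2, had 8.80 in the bulge, against 8.82 in the hairshaft. Its second probe set had 8.75 in bulge RNA and 8.32 in hairshaft RNA, so the direction turned with the mean of probe sets (0.21), as it also did with the loess trend removed. Scap had 10.14 in the bulge, against 10.34 in the hairshaft, and a dim second probe set had 3.96 on both arrays.

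Of the genes that move sterol inside the cell, Stard4 was the 1 listed gene lower in the bulge by 2-fold or more. Stard4, a carrier of cholesterol between membranes, had 8.50 in bulge RNA and 9.65 in hairshaft RNA, a difference of -1.16, or 2.23-fold lower in the bulge. All 3 of its probe sets were lower in the bulge, the other two by differences of -0.49 and -0.60, so that it was under 2-fold apart with the mean of probe sets (-0.75). Of all genes above the floor, 3.56% were at least as far apart in this direction. Npc1 and Npc2, which pass cholesterol out of lysosomes after uptake, were close on both arrays. Npc1 had 8.55 in the bulge, against 8.73 in the hairshaft, and Npc2 had 11.29 in bulge RNA and 11.22 in hairshaft RNA. The 3 probe sets of Npc2 above the floor differed by 0.07 to 0.18.

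The 2 export pumps above the floor went in opposite directions. Abca1, which loads cholesterol onto lipid-poor apolipoproteins, had 10.66 in the bulge, against 9.42 in the hairshaft, or 2.37-fold. Its other two probe sets had 7.76 in bulge RNA and 6.98 in hairshaft RNA, and 5.80 in the bulge, against 5.24 in the hairshaft. All 3 were higher in the bulge, and with the mean of probe sets Abca1 was under 2-fold apart (0.86). Abcg1, which passes cholesterol on to mature lipoprotein particles, had 8.27 in bulge RNA and 8.68 in hairshaft RNA, and its 2 probe sets were both lower in the bulge, at -0.40 and -0.60. Nr1h3, an LXR receptor, was not above the floor, at 2.67 in the bulge, against 2.66 in the hairshaft, so no difference is given.

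At the 2-fold limit, the share of other pathway genes higher in the bulge was close to that of the whole array. They were 44 enzymes, receptors, carriers and regulators, of which 39 had a probe set and 36 were above the floor. At least 2-fold higher in the bulge were 4 (11.1%, against 11.4% of all genes), and 1 was higher in the hairshaft by 2-fold or more (2.78%, against 4.91%). The median difference was 0.00, and 31 were under 2-fold apart. At a limit of 1.5-fold, 10 of the 36 were higher in the bulge, a larger share than the 18.5% of all genes. In the direction of the hairshaft 3 passed that limit, against 13.8% of all genes. Scarb1, the receptor that takes up cholesteryl esters from high-density lipoprotein, had 8.75 in the bulge, against 4.63 in the hairshaft, or 17.4-fold. All 3 of its probe sets differed by at least 3.77.

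Stard5, a sterol carrier related to Stard4, went the other way from it, with 9.63 in bulge RNA and 8.44 in hairshaft RNA, or 2.28-fold. The 3 probe sets of Stard5 above the floor differed by 1.01 to 1.72. Cyp27a1, a sterol hydroxylase of mitochondria, had 8.60 in the bulge, against 7.20 in the hairshaft, or 2.64-fold. Ch25h, which makes a hydroxylated sterol, had 4.24 in bulge RNA and 2.67 in hairshaft RNA, where it lay at or below the floor, so the bulge was at least 2.96-fold higher. A floor at the 99th percentile of the receptor genes shrank that difference to 0.03. Ggps1, which diverts farnesyl diphosphate toward protein prenylation, had 6.26 in the bulge, against 7.48 in the hairshaft, or 2.31-fold lower in the bulge. With the mean of all their probe sets Stard5 (0.98), Cyp27a1 (0.70) and Ggps1 (-0.65) were under 2-fold apart. That mean takes in a probe set of Stard5 and another of Cyp27a1 below the floor, each at 2.23 on both arrays. For Ggps1 it takes in a probe set with 4.94 on both arrays.

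Markers of lipid-making cells were higher in the bulge, as were those of muscle, endothelium and inner root sheath. The 5 sebocyte markers above the floor, of 9 listed, had a median difference of 6.51 and a summed linear level of 31377 in bulge RNA and 3479 in hairshaft RNA. Of the other 4, 3 had no probe set listed and Mc5r was not above the floor. The 7 adipocyte markers measured, of 9 listed, had a median of 6.94 and a summed linear level of 52469 in the bulge, against 101 in the hairshaft, where Adipoq, Cidec, Lep and Retn were at or below the floor. These sums lean on few probe sets. Scd1 gave 76.1% of the sebocyte sum in the bulge and 97.2% in the hairshaft. Car3 gave 59.2% of the adipocyte sum in the bulge and 51.3% in the hairshaft. Muscle, adipocyte and sebocyte markers above the floor were all higher on the same array. Whether RNA of another cell type adds to the values of a list, Car3 and Scd1 included, was not tested. None of the 27 cholesterol genes was at or below the floor on either array. The part of sebocyte, adipocyte, muscle, vessel and inner root sheath RNA in the differences of Insig1, Mvd, Idi1, Lss and Scarb1 was not tested.

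Markers of macrophages, which use Abca1 and Abcg1 heavily, went both ways. Cd163 (0.98) and Lyz2 (0.73) were higher in the bulge by over 1.5-fold, Csf1r (-0.98) was lower in it by over 1.5-fold, and the other 5 of the 8 lay within 1.5-fold. Their median difference was 0.10 and their summed linear level was 3819 in the bulge, against 4016 in the hairshaft. The 6 markers of suprabasal epidermis, whose cells make barrier cholesterol, had a median of -0.45, with 2 higher in the hairshaft by 2-fold or more and none in the bulge. The 6 fibroblast markers ranged from -2.49 for Col1a1 to 0.66 for Pdgfra, with a summed linear level of 33970 in the bulge, against 82466 in the hairshaft. Of these, 3 collagen genes, Col1a1, Col1a2 (-1.47) and Col3a1 (-1.24), were lower in the bulge by 2-fold or more. The part of epidermal, fibroblast and macrophage RNA in the lower bulge values of Stard4, Dhcr7 and Abcg1, and that of macrophage RNA in Abca1, was not tested.

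**Figure D4:**
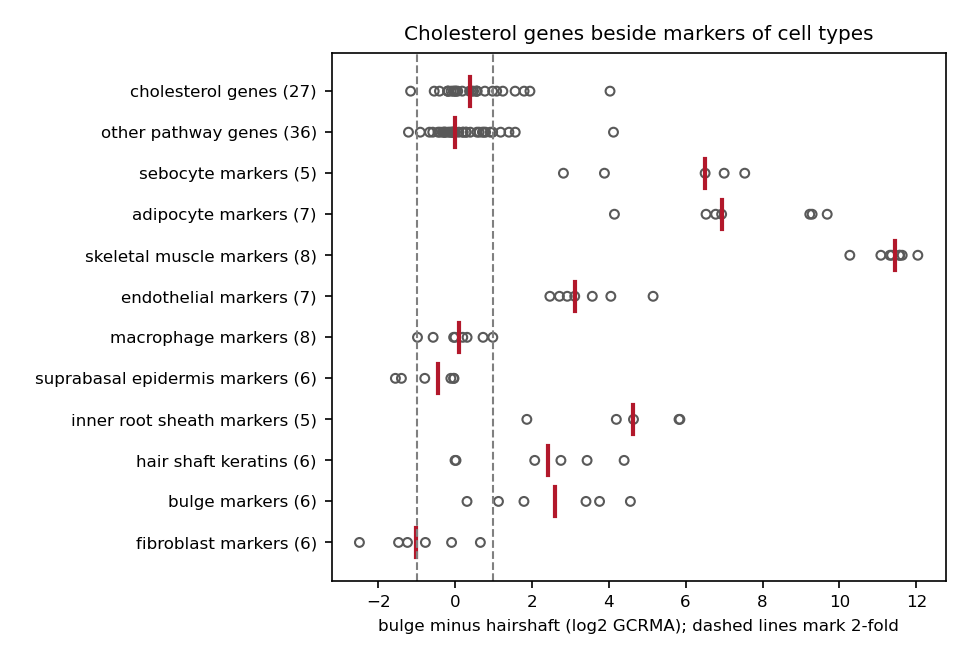
Bulge minus hairshaft difference (log2 GCRMA) of the 27 cholesterol genes, the 36 other pathway genes and the marker lists, counting genes above the floor (number in brackets). Each circle is a gene and each red bar the median of its list. The cholesterol genes centre on 0.38, the macrophage markers on 0.10 and the sebocyte and adipocyte markers on 6.51 and 6.94.

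Several probe sets of a gene repeat the readout of the same RNA, but not the sample, so they do not show the spread between samples. Of 17 cholesterol genes for which several probe sets passed the floor, 10 (58.8%) had all of them in the same direction. Over the whole array it was 3126 of 6256 genes (49.97%). In both shares a probe set with equal values on both arrays counted as not in the same direction. Cyp51, Lss and Scap failed only through a dim probe set of that kind. Hmgcs1, Hsd17b7, Msmo1 and Srebf2 had probe sets in opposite directions. Among the 6 genes higher in the bulge by 2-fold or more, 4 (Mvd, Idi1, Insig2 and Abca1) had every probe set above the floor in that direction, Lss had a dim one with equal values, and Insig1 had 1 probe set. Over all 55 probe sets above the floor, 34 were higher in the bulge and 18 higher in the hairshaft. The same share over all probe sets of the array was not computed, and genes with several probe sets weigh more in this count.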

How the data were processed

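The deposited values were log2 probe-set summaries that the authors made with GCRMA, per the submitters' processing notes, which name no version. The log2 scale was inferred from a range of 2.23 to 15.36. After sorting, the columns lay within 0.19 of each other, so they were used as deposited, and 0 columns were left unused.

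A platform annotation gave 1 symbol to 34958 probe sets, several to 932 and none to 9211, and symbols were updated through Entrez identifiers for 34754. Each gene took its brightest probe set (18194 genes). A value at or below the floor was set to the floor, which makes that fold a lower bound. With 1 array per group there were 0 residual degrees of freedom, so no test was run, and the number of arrays limits the precision.

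All measured listed genes are named, and other pathway genes only if at least 2-fold apart. The genes, lists and limits were chosen with earlier results of these data known. There were 9 alternatives (3 floors, 2 choices of probe set, an offset of 16, a loess trend of span 0.3, the median difference and quantile normalization), and a subset with a mean above 8 was added after seeing the data. Counting was tested on simulated data. The tools were numpy 2.4.6, pandas 2.3.3, statsmodels 0.14.6 and matplotlib 3.10.9 under Python 3.11.15.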

Additional observations from a re-analysis of the deposited data

How the results depend on the processing

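Of the 9 alternatives, 4 (the 3 floors and the median difference) left every value of the 27 genes as it was, so they say nothing of stability. Of the other 5, plain probe sets only, the offset of 16 and quantile normalization gave the same 6 genes as higher in the bulge by 2-fold or more. With the mean of probe sets Abca1 dropped out, leaving 5, and with the loess trend removed Nsdhl joined, making 7. The count higher in the hairshaft by 2-fold or more was 1 except for the mean of probe sets (0) and plain probe sets only (2, Msmo1 and Stard4), where the count at 1.5-fold was also 2. The median difference ran from 0.21 (mean of probe sets) to 0.53 (loess trend removed), and was 0.13 in the subset with a mean above 8. Of 27 genes, 23 kept their direction in the alternatives that could move their values, and Msmo1, Hsd17b7, Srebf2 and Sqle did not. Not all 5 could move every gene. The mean of probe sets moved 18 of the 27 and plain probe sets only moved 7, with no plain probe set for Pmvk. Values that moved by over 1.5-fold included Mvd with plain probe sets only (1.17), Cyp27a1 with the mean of probe sets (0.70) and Scarb1 with the offset of 16 (3.45). Other pathway genes higher in the bulge by 2-fold or more numbered 2 with the mean of probe sets. With plain probe sets only, Mvd was read from its second probe set. The mean of Cyp27a1 took in a probe set below the floor, with 2.23 on both arrays. The offset adds 16 to each linear level, which shrinks a difference that involves a low value, such as that of Scarb1 in the hairshaft (4.63). No paired analysis was possible because each structure had 1 array, and for the same reason no replicate could be left out.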
